A study of Mus musculus with 20 samples.

Results

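Actinic keratosis (AK), the UV-induced precursor lesion of cutaneous squamous cell carcinoma (cSCC), was compared with normal skin (NS) across all genes in 8 AK and 8 NS samples, chosen by their group labels from 20 RNA-seq samples of mouse skin. All samples came from the backs of 8 female hairless SKH-1 mice, an immunocompetent strain with no transgene, that were 7 months old when supplied for the study. The UVR arm (4 mice) was irradiated with UVA and UVB from a solar simulator and the other arm (4 mice) received no UV. Each irradiated mouse gave 1 piece of NS, 2 AK lesions and 1 cSCC, and each unirradiated mouse gave 1 piece of NS. The study names the AK lesions grade 1 and grade 2, but its pathology table classes them as papillomas and puts some above grade 2. The NS group therefore pooled irradiated and unirradiated skin, every AK shared its mouse with another AK and with an NS, and the labels do not tie a sample to a mouse, an AK grade or the UV exposure of an NS. Exposure and lesion cannot be told apart in this contrast, and p-values that treat the 16 samples as independent may be too small.

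Epidermis is renewed by basal keratinocytes that stop dividing, change their keratins and build a cornified envelope of cross-linked proteins and lipids. Keratinocytes are also sentinels: on injury they release alarm cytokines and respond to interferons, and resident T cells survey them. AK is a lesion of disordered keratinocyte maturation, and the comparison addressed which of these programmes differ from NS while the lesion is still premalignant.

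Libraries held 1624325 to 6295575 counts in NS and 867219 to 14055206 in AK, with AK 12 the smallest and AK 10 the largest, so precision differed widely between samples. Levels below are CPM values, which put libraries of unlike depth on the same scale after TMM correction for composition, and 3 counts, the least taken as above counting noise, corresponded to 0.225 CPM in AK 10 and 3.78 CPM in AK 12. The 10 most abundant genes took 18.6% of AK 14 and 6.74% to 10.3% of the other 15 libraries, and haemoglobin genes were high in AK 14. Keratinocyte markers were abundant in both groups, with summed levels of 11500 to 25600 CPM in NS and 14600 to 25000 CPM in AK, so both sets of pieces were rich in epidermis as labelled.

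In AK, 14 of 16 interferon gamma-inducible GTPase genes, 16 of 40 type I interferon-stimulated genes, 10 of 29 genes of glycolysis and the hypoxia response, the alarm cytokine Tslp and the prostaglandin synthase Ptgs2 rose. Loricrin and 6 other genes of 45 in the cornified envelope list, the suprabasal keratin Krt77 and 4 of 11 Skint genes fell. Of 11677 genes tested, 542 (4.64%) were DEGs, with 264 (2.26%) higher and 278 (2.38%) lower in AK. A DEG had an adjusted p below 0.05 in edgeR's quasi-likelihood test with Benjamini-Hochberg adjustment over all genes tested, called the edgeR adjusted p below, and a fold change above 1.5 or below 0.67. Without TMM factors the split was 176 higher and 481 lower (26.8% higher, against 48.7%), and with upper quartile factors it was 190 and 391 (32.7% higher), so the balance of directions depended on the scaling.

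Most DEGs were of moderate size, and most had all AK samples on 1 side of the NS median. The median DEG was 1.88-fold higher or 2.23-fold lower, 118 and 178 DEGs passed 2-fold, and 22 and 27 passed 4-fold. All 8 AK samples lay above the NS median for 246 (93.2%) of the higher DEGs and below it for 257 (92.4%) of the lower DEGs, against 11.5% and 8.95% of all tested genes, which describes the called genes and was not tested. DEGs were called from these same samples and had to pass the fold limits, so the folds and shares follow in part from the call. The groups did not overlap in 38 of the higher and 13 of the lower DEGs, and in 46 (0.394%) and 15 (0.128%) of all tested genes, 61 (0.522%) in all.

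The number of DEGs depended strongly on single libraries. Leaving out 1 library at a time gave 164 DEGs (without NS 4) to 920 (without NS 8), and it fell to 181 without AK 13 and 231 without AK 16. Without the 4 smallest libraries (AK 12, AK 16, NS 4 and NS 6) only Tslp was a DEG, 39 genes had an adjusted p below 0.1 and 1797 an unadjusted p below 0.05. Genes described one by one are therefore mostly given with the number of the 16 leave-1-out fits in which they were called again.

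**Figure D1:**
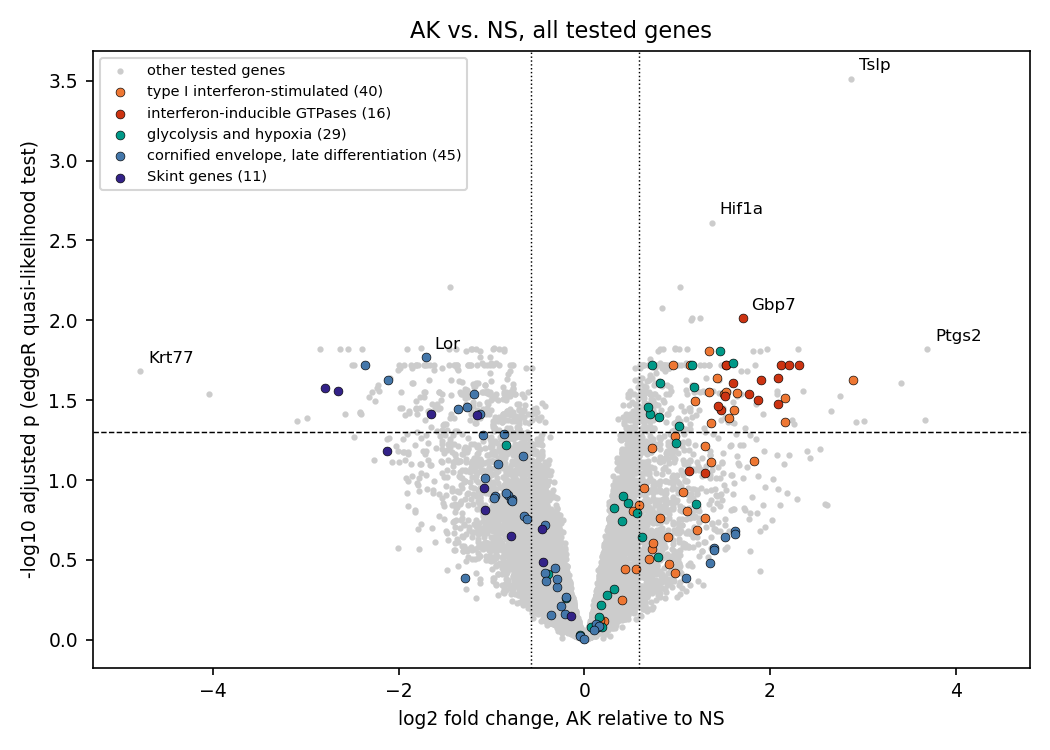
Each point is 1 of the tested genes, with the log2 fold change of AK relative to NS on the horizontal axis and the −log10 adjusted p of edgeR's quasi-likelihood test on the vertical axis. The dashed line marks an adjusted p of 0.05 and the dotted lines the fold limits of 1.5 and 0.67. Interferon-stimulated genes and GTPases lie to the right, Skint genes to the left, and Tslp has the smallest adjusted p (0.000308).

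The direction of change was related to base composition. In the quintile of tested genes with the lowest transcript GC content (31.0% to 43.5%) the median log2 fold change was 0.21, with 128 DEGs higher and 20 lower, and in the quintile with the highest (54.7% to 72.8%) it was −0.36, with 4 higher and 118 lower. The same trend was present sample by sample. The median deviation of the top GC quintile minus that of the bottom quintile, in log2 units, was 0.30 ± 0.27 in NS and −0.27 ± 0.33 in AK (SD, n = 8 each, two-sided exact permutation test, p = 0.00249). AK 12 (−0.76) and AK 16 (−0.74), both small libraries, were lowest, and NS 9 (−0.28) was the only NS below 0. The part of this trend in the results below was not tested. A fit with an offset removing the GC trend of each sample, added after the data were seen, gave 114 higher and 121 lower DEGs among 11239 genes with a GC value, of which 187 were DEGs without it. Of the 77 DEGs that the text takes from the rule for named genes, 40 were called in both fits.

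**Figure D2:**
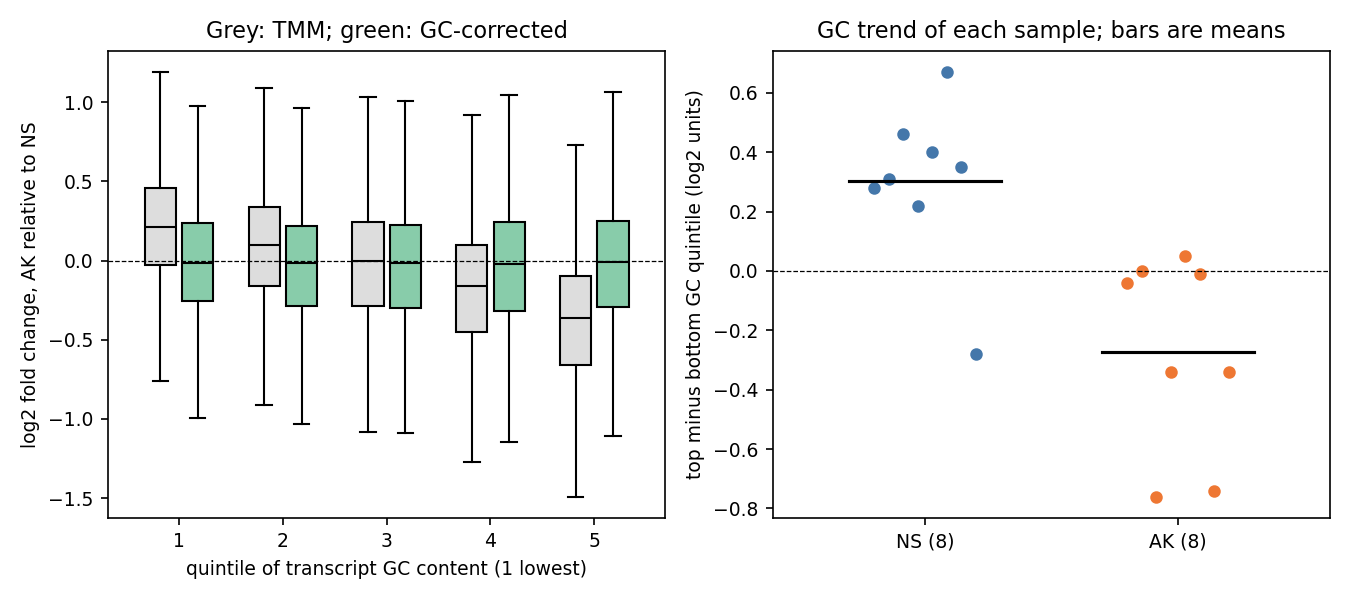
Left, log2 fold changes of AK relative to NS in quintiles of transcript GC content, with grey boxes for the TMM fit and green boxes for the GC-corrected fit (box, quartiles; whiskers, 1.5 times the interquartile range). Right, the difference between the top and the bottom GC quintile in each of the 8 NS and 8 AK samples, with group means as bars, 0.30 in NS and −0.27 in AK.

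Interferon-inducible genes were the group with the most DEGs in 1 direction. Interferons signal through STAT proteins to genes that restrict viruses and intracellular microbes, among them the guanylate-binding proteins (Gbp genes) and the immunity-related GTPases (Irgm genes, Iigp1, Tgtp1, Tgtp2), which act on the vacuoles of intracellular pathogens. In the interferon gamma-inducible GTPase list 14 of 16 tested members rose (median log2 fold change 1.74, against −0.04 over all tested genes), and in the type I interferon-stimulated list 16 of 40 rose (median 1.12). Every tested member of both lists had a log2 fold change above 0, and none fell. The GTPase count was 5 without AK 13, 6 without NS 4 and 15 without NS 7 or NS 9, the type I count was 5 without AK 13 or NS 4 and 19 without NS 7, and the GC-corrected fit called 7 of 16 and 9 of 36 with medians of 1.57 and 1.16.

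Promoters of these genes are shown because the interferon-stimulated response element (ISRE), the letters that STAT- and IRF-containing complexes recognise, was frequent in them. The letters GAAANNGAAA or, on the other strand, TTTCNNTTTC were searched from 250 bases before to 50 bases after the start site in RefSeq promoters (GRCm38.p6). They occurred in 3.44% of the 32851 promoters in the table, in 3.24% of those of tested genes, in 13.5% of those of higher DEGs and in 2.86% of those of lower DEGs. In the interferon gamma-inducible GTPase list 9 of 11 promoters (81.8%) held them, and in the type I interferon-stimulated list 15 of 30 (50%). These promoters covered 10 of the 16 and 25 of the 40 tested genes. Both lists were built from known interferon-inducible genes, so these shares describe the lists. Their higher DEGs also count in the 13.5%. A match describes the letters and is not evidence of binding. The stretches below, all upstream of the start site, have the matches in capitals (2 in Ifit1, 1 in each of the others) and read 5′ to 3′ in the direction of transcription. They lie at chr3:142530258-142530317 (Gbp7, plus strand), chr11:48992289-48992348 (Tgtp1, minus strand), chr19:34640760-34640819 (Ifit1, plus strand) and chr5:120777700-120777759 (Oas3, minus strand), and the first match begins 53, 77, 104 and 75 bases before the start site.
Gbp7: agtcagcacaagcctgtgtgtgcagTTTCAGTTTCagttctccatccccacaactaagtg
Tgtp1: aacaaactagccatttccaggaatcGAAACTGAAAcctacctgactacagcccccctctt
Ifit1: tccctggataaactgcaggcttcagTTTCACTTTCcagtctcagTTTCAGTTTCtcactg
Oas3: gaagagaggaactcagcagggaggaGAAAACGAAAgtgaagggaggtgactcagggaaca

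Gbp7 had the most stable change of the GTPases. Its level was 24.1 to 97.4 CPM in NS (median 47.1) and 105 to 318 CPM in AK (median 169). The groups did not overlap, with AK 13 highest and NS 5 lowest, the log2 fold change was 1.71 ± 0.27 (SE, edgeR adjusted p = 0.00966), and all 16 leave-1-out fits called it. Tgtp1 was 6.97 to 98.9 CPM in NS (median 33.6) and 92.7 to 569 CPM in AK (median 165), a log2 fold change of 2.31 ± 0.49 (edgeR adjusted p = 0.0190, 16 leave-1-out fits). AK 13 stood far above the other AK samples and AK 10 lay below NS 7. Tgtp1 and Tgtp2 are near-identical, as are several Gbp genes, so their reads may have been split between copies. Iigp1, an immunity-related GTPase, was 19.6 to 213 CPM in NS (median 107) and 279 to 1190 CPM in AK (median 382) without overlap, with a log2 fold change of 2.09 ± 0.48 (edgeR adjusted p = 0.0231, 15 leave-1-out fits). With the GC correction Gbp7 (adjusted p = 0.0178) and Tgtp1 (adjusted p = 0.0403) stayed DEGs and Iigp1 (adjusted p = 0.0591) did not.

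Among type I interferon-stimulated genes, Rtp4, a chaperone-like transmembrane protein, was 18.4 to 182 CPM in NS (median 57.2) and 199 to 393 CPM in AK (median 222). No sample overlapped, and the log2 fold change was 1.64 ± 0.40 (edgeR adjusted p = 0.0286, called in 12 of 16 leave-1-out fits and in the GC-corrected fit). Ifit1, which binds viral RNA, was 3.19 to 103 CPM in NS (median 29.6) and 86.9 to 268 CPM in AK (median 162), and only AK 16 lay within the NS range. Its log2 fold change was 2.16 ± 0.54 (edgeR adjusted p = 0.0307, called in 11 leave-1-out fits), and with the GC correction it was not a DEG (adjusted p = 0.0741). The RNase L activating enzyme gene Oas3 was 0.00 to 34.3 CPM in NS (median 8.53) and 17.4 to 82.5 CPM in AK (median 57.3), with a log2 fold change of 2.16 ± 0.61 (edgeR adjusted p = 0.0435), and it was called in 3 leave-1-out fits only. NS 7 and NS 8 were the highest NS samples for Rtp4, Ifit1 and Iigp1. Outside these lists Phf11d, a PHD-finger gene, was 6.95 to 50.6 CPM in NS (median 12.4) and 60.9 to 91.6 CPM in AK (median 69.0), without overlap, and was called in all 16 leave-1-out fits (log2 fold change 1.82 ± 0.35, edgeR adjusted p = 0.0156).

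Antigen presentation moved little beside these genes. Of 22 members of the MHC class I presentation list 1 rose, Erap1, the aminopeptidase that trims peptides in the endoplasmic reticulum, at 21.4 to 50.6 CPM in NS (median 41.2) and 50.3 to 82.9 CPM in AK (median 62.8). It had a log2 fold change of 0.75 ± 0.18 (edgeR adjusted p = 0.0289, 9 leave-1-out fits) and was not a DEG with the GC correction (adjusted p = 0.152). All 22 members had log2 fold changes above 0, with a median of 0.29. The constant chain gene B2m (log2 fold change 0.48 ± 0.19, edgeR adjusted p = 0.128) and H2-K1 (0.18 ± 0.19, edgeR adjusted p = 0.582) did not pass the test. None of the 10 tested MHC class II presentation genes was a DEG by edgeR (median log2 fold change −0.20), and 1 was higher by DESeq2 and at an unadjusted p below 0.05.

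Of 34 chemokines and receptors tested, 4 rose: Cxcl9 and Cxcl10, interferon-induced ligands of CXCR3 on T cells, Ccl3, which attracts monocytes, and Ccl11, an eosinophil attractant. Cxcl9 was 4.05 to 108 CPM in NS (median 15.5) and 56.9 to 382 CPM in AK (median 139), with a log2 fold change of 2.36 ± 0.57 (edgeR adjusted p = 0.0278, 14 leave-1-out fits). Ccl3 was 0.352 to 19.8 CPM in NS (median 3.24) and 6.36 to 108 CPM in AK (median 23.5), with a log2 fold change of 2.76 ± 0.69 (edgeR adjusted p = 0.0297, 9 leave-1-out fits). All AK samples lay above the NS median for both, but the groups overlapped. In the chemokine and receptor list no gene was called without AK 13 or without NS 4, 8 were called without NS 9, and the GC-corrected fit called only Ccl3. Of 15 tested genes in a list of matrix metalloproteinases, enzymes that degrade extracellular matrix, and their TIMP inhibitors, the collagenase Mmp13 rose (0.352 to 47.2 CPM in NS, 11.5 to 506 CPM in AK, log2 fold change 3.41 ± 0.79, edgeR adjusted p = 0.0247), as did the stromelysin Mmp10 (log2 fold change 3.01 ± 0.84, edgeR adjusted p = 0.0426), called in 14 and 4 leave-1-out fits. The GC-corrected fit called Mmp13 but not Mmp10 (adjusted p = 0.0678).

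The epithelial alarm cytokine Tslp gave the strongest single result. Thymic stromal lymphopoietin is released by stressed keratinocytes and acts through a receptor that contains the IL-7 receptor chain Il7r on dendritic cells, T cells and innate lymphoid cells. Its level was 5.48 to 18.3 CPM in NS (median 14.8) and 35.8 to 224 CPM in AK (median 95.5). The lowest AK sample, AK 10, lay above every NS sample, and the log2 fold change was 2.87 ± 0.32 (edgeR adjusted p = 0.000308). It was called in all 16 leave-1-out fits, with the GC correction (log2 fold change 2.57, adjusted p = 0.00104) and without the 4 smallest libraries. Il7r was 17.8 to 83.4 CPM in NS (median 49.7) and 70.2 to 174 CPM in AK (median 99.0), with a log2 fold change of 1.03 ± 0.30 (edgeR adjusted p = 0.0485). The groups overlapped and 3 leave-1-out fits called it. Il13ra1, a receptor chain for IL-4 and IL-13, rose from 216 to 459 CPM in NS to 476 to 844 CPM in AK without overlap (log2 fold change 0.70 ± 0.16, edgeR adjusted p = 0.0238, 15 leave-1-out fits), and Il6ra, the IL-6 receptor, fell (log2 fold change −0.83 ± 0.24, edgeR adjusted p = 0.0472, 4 leave-1-out fits). Of the 11 genes tested in the epithelial alarm cytokine and STAT3 cytokine list, 3 rose and 1 fell, and Tslp alone was called with the GC correction.

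Ptgs2 (cyclooxygenase-2), the inducible enzyme that starts prostaglandin synthesis and a UV-response gene of epidermis, had the largest fold change among the higher DEGs. It was 0.00 to 8.83 CPM in NS (median 2.13) and 5.31 to 110 CPM in AK (median 16.9), with AK 16 and AK 15 highest. Only AK 10 fell within the NS range, set by NS 8, and the log2 fold change was 3.69 ± 0.67 (edgeR adjusted p = 0.0151, called in all 16 leave-1-out fits and with the GC correction). Pla2g2f, a secreted phospholipase of suprabasal epidermis, fell from a median of 237 CPM in NS to 132 CPM in AK (log2 fold change −0.96 ± 0.26, edgeR adjusted p = 0.0402, 5 leave-1-out fits), and was not called with the GC correction (adjusted p = 0.157). The other 15 tested genes of the prostaglandin list did not pass the test.

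**Figure D3:**
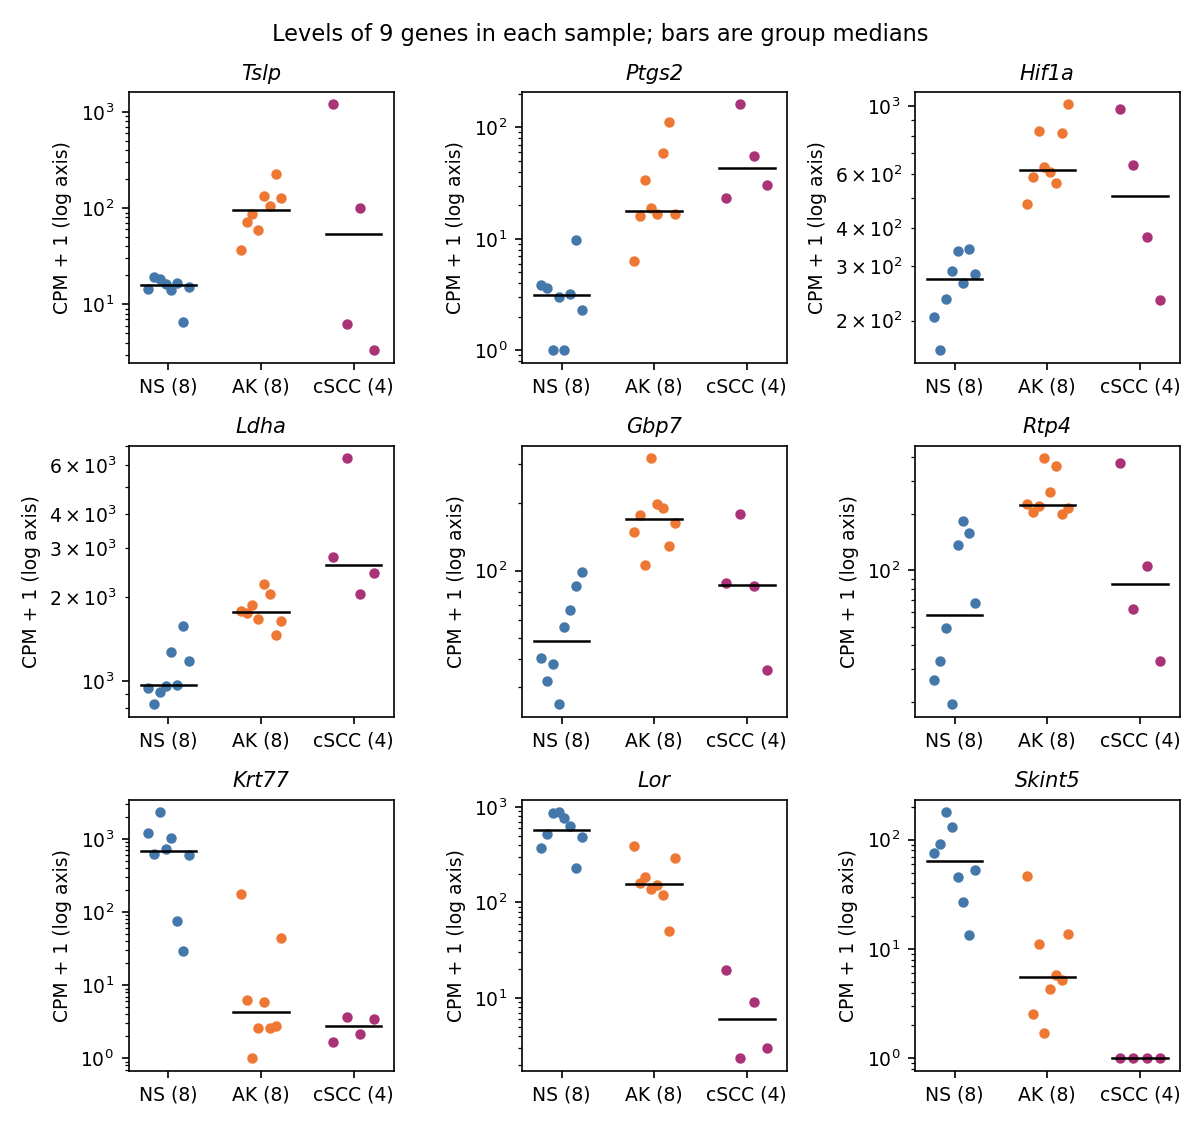
CPM + 1 on a log axis in every NS (8), AK (8) and cSCC (4) sample for 9 genes, with group medians as bars. Tslp, Hif1a, Gbp7 and Rtp4 do not overlap between NS and AK, while for Krt77, Lor and Skint5 the AK 10 and AK 17 samples reach into the NS range.

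Hif1a rose, and so did 10 of 29 tested genes of glucose metabolism and the hypoxia response. HIF-1α is the oxygen-regulated transcription factor that switches on glucose uptake, glycolysis and Vegfa, and it is controlled mainly at the protein level. The Hif1a transcript was 159 to 341 CPM in NS (median 273) and 478 to 1010 CPM in AK (median 619). No sample overlapped, with NS 8 the highest NS and AK 10 the lowest AK, and the log2 fold change was 1.37 ± 0.18 (edgeR adjusted p = 0.00245). It was called in all 16 leave-1-out fits and with the GC correction (adjusted p = 0.00985), but not without the 4 smallest libraries. In this glycolysis and hypoxia list none fell, 25 had log2 fold changes above 0 and 4 below (median 0.57), and the 10 that rose were the glucose transporter Slc2a1, the enzymes Hk2, Pfkfb3, Pgk1, Pgam1 and Ldha, and Vegfa, Bnip3, Ndrg1 and Ero1l. The count was 4 without NS 4, 5 without AK 16 or NS 1, and 11 without NS 8, and it was 9 with the GC correction (median 0.60).

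Ldha, which reduces pyruvate to lactate, was 822 to 1580 CPM in NS (median 961) and 1460 to 2240 CPM in AK (median 1770), with only AK 16 below the highest NS sample, NS 8. The log2 fold change was 0.73 ± 0.16 (edgeR adjusted p = 0.0190). The angiogenic factor Vegfa was 2.70 to 8.13 CPM in NS (median 6.57) and 5.04 to 27.6 CPM in AK (median 18), with AK 12 the only AK sample in the NS range (log2 fold change 1.6 ± 0.32, edgeR adjusted p = 0.0184). Ndrg1, a hypoxia-responsive gene of differentiating epithelia, was 47.2 to 151 CPM in NS (median 71.7) and 115 to 495 CPM in AK (median 219), with a log2 fold change of 1.46 ± 0.28 (edgeR adjusted p = 0.0156). Pfkfb3, which makes the activator of phosphofructokinase, had a log2 fold change of 1.16 ± 0.25 (edgeR adjusted p = 0.0190), and 7 AK samples lay above the NS range. These 4 genes were called in all 16 leave-1-out fits and with the GC correction. Slc2a1 (log2 fold change 1.02 ± 0.29, edgeR adjusted p = 0.0456) overlapped more, with NS 8 at 161 CPM and NS 6 at 141 CPM against 143 to 196 CPM in AK, and was called in 4 leave-1-out fits.

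The core letters of the hypoxia response element, ACGTG or CACGT on the other strand, occurred in 21 of 37 promoters (56.8%) of the glycolysis and hypoxia list, against 24.9% of the promoters of tested genes and 24% of those of all higher DEGs. Letters this short are frequent by chance, and the list was built from known hypoxia-responsive genes, so this describes the list. Genes of the nuclear-encoded oxidative phosphorylation list gave no DEG among 40 tested by edgeR, with 2 lower by DESeq2 and at an unadjusted p below 0.05 (median log2 fold change −0.23, 31 below 0).

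Of 14 basal and suprabasal keratins tested 3 fell, and of 45 cornified envelope and late differentiation genes 7. Krt77, a type II keratin of interfollicular suprabasal cells, had the largest fold change among the lower DEGs. It was 28.0 to 2320 CPM in NS (median 686) and 0.00 to 176 CPM in AK (median 3.31), with AK 10 and AK 17 above the other 6 AK samples and NS 8 and NS 7 the lowest NS samples. The log2 fold change was −4.79 ± 1.07 (edgeR adjusted p = 0.0209), and all 16 leave-1-out fits and the GC-corrected fit called it. Krt2, a keratin of late suprabasal cells, fell from a median of 34.5 CPM to 1.62 CPM (log2 fold change −2.99 ± 0.82, edgeR adjusted p = 0.0411, 5 leave-1-out fits, not called with the GC correction), and Krt79, a keratin of the follicle funnel and sebaceous duct, from 776 to 438 CPM (log2 fold change −1.26 ± 0.26, edgeR adjusted p = 0.0190, 16 leave-1-out fits, called with the GC correction). The other 11 tested members of the basal and suprabasal keratin list did not pass the test. Krt14, the basal keratin, was 3660 to 13100 CPM in NS and 7050 to 11200 CPM in AK (log2 fold change 0.38 ± 0.26, edgeR adjusted p = 0.378).

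In the cornified envelope and late differentiation list none rose, 38 of 45 were not called and the median log2 fold change was −0.43. The 7 that fell were loricrin (Lor), the main envelope protein, the filaggrin relative Flg2, and the late cornified envelope genes Lce1a1, Lce1a2, Lce1b, Lce1l and Lce1m. Lor was 228 to 881 CPM in NS (median 576) and 49.1 to 386 CPM in AK (median 155), with 6 AK samples below the NS range and AK 10 and AK 17 inside it. Its log2 fold change was −1.71 ± 0.34 (edgeR adjusted p = 0.0170). Lce1m was 139 to 1410 CPM in NS (median 342) and 28.8 to 285 CPM in AK (median 88.8), with AK 10 the only AK sample in the NS range (log2 fold change −2.37 ± 0.49, edgeR adjusted p = 0.0190). Both were called in all 16 leave-1-out fits and were the 2 members called with the GC correction. The count was 2 without AK 13 or NS 4 and 11 without AK 10. Dapl1, a gene of early epithelial differentiation, fell from 77.9 to 720 CPM in NS (median 319) to 23.8 to 179 CPM in AK (median 36.9), and Cst6, which encodes cystatin M/E, a protease inhibitor needed for cornification, from 1990 to 15000 CPM (median 3430) to 1070 to 2720 CPM (median 1360). Both were called in all 16 leave-1-out fits and with the GC correction (Dapl1, log2 fold change −2.63 ± 0.47, edgeR adjusted p = 0.0151; Cst6, −1.94 ± 0.41, edgeR adjusted p = 0.0190). In the epidermal lipid barrier list the lipoxygenase gene Alox12e and the ceramidase gene Acer1 fell (log2 fold changes −1.72 and −0.86), in 4 and 6 leave-1-out fits, neither was called with the GC correction (adjusted p = 0.0747 and 0.0562), and the other 25 did not pass.

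Krt16, Krt6b and Sprr2a1, genes of the wound and stress state of keratinocytes, were high in all AK samples but spread widely in NS. Krt16, a stress keratin, was 2430 to 5040 CPM in AK (median 3690) and 159 to 5110 CPM in NS (median 1070). Krt6b, its partner type, was 2030 to 3860 CPM in AK and 34.9 to 4130 CPM in NS. For both, NS 7 and NS 8 lay within the AK range or above it and NS 1 and NS 2 were lowest, and neither passed the test (log2 fold changes 1.02 ± 0.57 and 1.27 ± 0.71, edgeR adjusted p = 0.277 and 0.280). The stress keratin list also holds keratins of simple epithelia, among them Krt20, the 1 DEG of the 8 tested (log2 fold change 1.97 ± 0.37, edgeR adjusted p = 0.0151, 16 leave-1-out fits, called with the GC correction). Krt20 was low throughout at 0.478 to 1.70 CPM in NS and 2.77 to 8.83 CPM in AK. Of the 8 tested members, 5 had log2 fold changes above 0 and 3 below. In the small proline-rich protein list, envelope proteins induced in stressed epidermis, none of 14 was a DEG by edgeR, 2 were higher and 1 lower at an unadjusted p below 0.05, and limma voom with quality weights called 11 higher, with a median log2 fold change of 1.03 by edgeR and 3.26 by voom. Of these 14 genes, 13 had log2 fold changes above 0 by edgeR and 1 below (−1.70). Sprr2a1, near-identical to its neighbours, was 3090 to 7480 CPM in AK and 4.75 to 7600 CPM in NS.

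**Figure D4:**
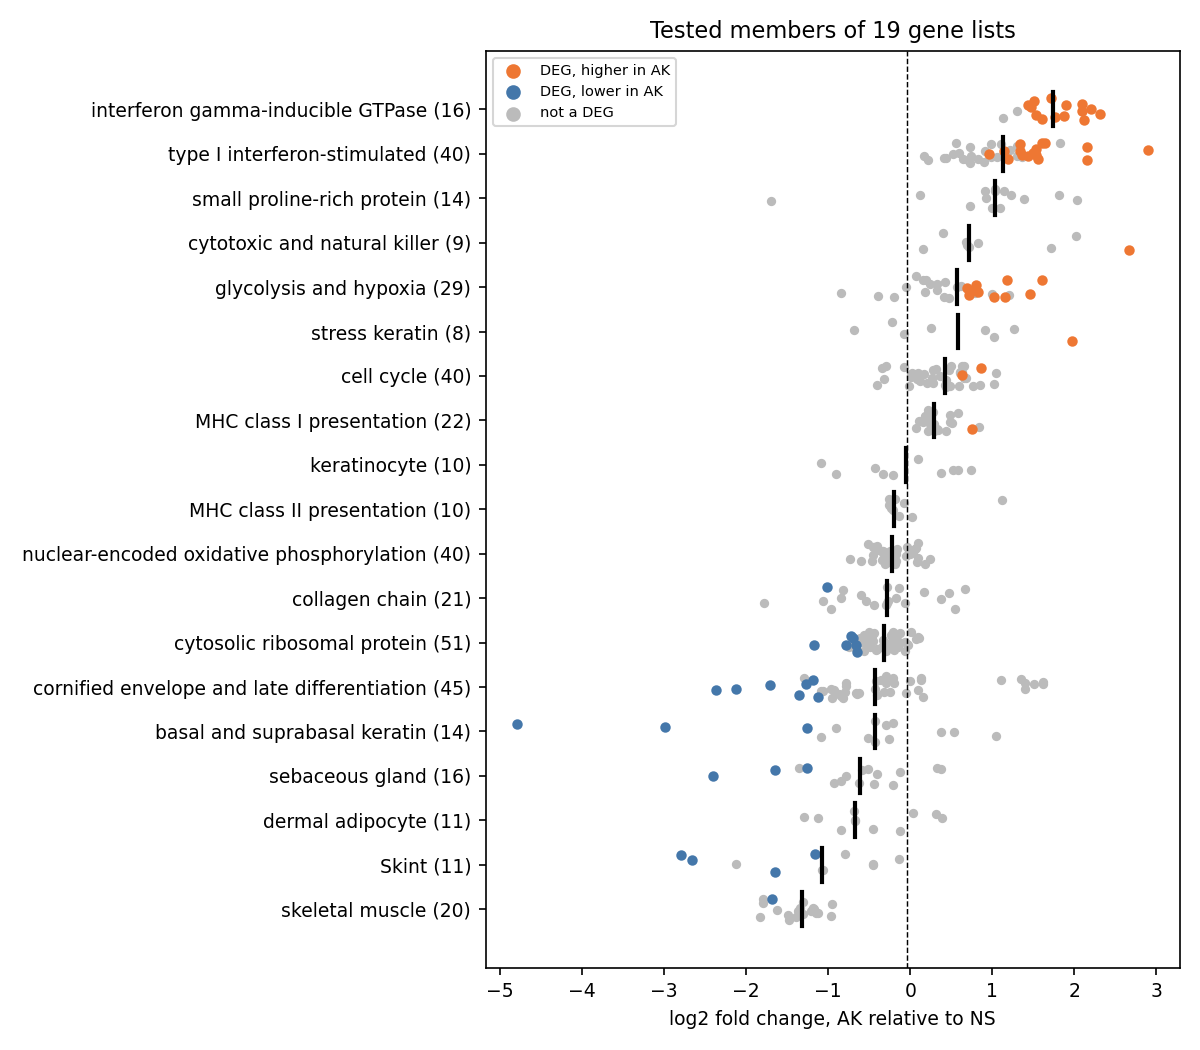
Log2 fold changes of AK relative to NS for the tested members of 19 gene lists (number tested in parentheses), with orange points for DEGs higher in AK, blue points for DEGs lower in AK, grey points for the rest and black bars for list medians. The dashed line is the median of all tested genes (−0.04), and the list medians run from 1.74 (GTPases) to −1.32 (skeletal muscle).

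Skint genes, which encode butyrophilin-like surface proteins of keratinocytes and are named for Skint1, the selecting element for dendritic epidermal γδ T cells, included some of the larger decreases. Of 11 members tested 4 fell (Skint4, Skint5, Skint6 and Skint9), all 11 log2 fold changes were below 0, and the median was −1.08. Skint5 was 12.5 to 177 CPM in NS (median 63.1) and 0.701 to 45.8 CPM in AK (median 4.49), with 6 AK samples below the NS range, and its log2 fold change was −2.80 ± 0.67 (edgeR adjusted p = 0.0266, 13 leave-1-out fits). Skint6 was 8.52 to 217 CPM in NS (median 82.6) and 1.26 to 44.7 CPM in AK (median 5.99), with a log2 fold change of −2.66 ± 0.64 (edgeR adjusted p = 0.0278, 12 leave-1-out fits). AK 10 was the highest AK sample and NS 8 the lowest NS sample for both. Skint9 and Skint4 were called in 5 and 4 leave-1-out fits. The Skint count was 0 without AK 15, AK 16 or NS 4 and 6 without NS 8, and it was again 4 with the GC correction. The paralogs resemble each other in sequence, so their counts may not be fully separate.

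T cell markers moved in both directions. Cd7, carried by dendritic epidermal T cells and other lymphocytes, was 3.35 to 27.5 CPM in NS (median 6.38) and 0.00 to 6.14 CPM in AK (median 1.90), and Cd247, the CD3 ζ chain, was 3.65 to 12.6 CPM in NS (median 7.10) and 0.00 to 5.04 CPM in AK (median 2.35). Both fell (log2 fold changes −1.89 ± 0.51 and −1.54 ± 0.44, edgeR adjusted p = 0.0382 and 0.0487), but were called in 6 and 2 leave-1-out fits and not with the GC correction. The γδ T cell list had 5 of its 10 genes in the table, and their summed level was 4.87 to 39.7 CPM in NS and 0.00 to 10.9 CPM in AK, near the floor of the smaller libraries. The T cell list as a whole had a summed level of 119 to 289 CPM in NS and 187 to 382 CPM in AK, with 1 of 11 members higher (Il7r) and 1 lower (Cd247). In these bulk samples fewer cells of a type and less RNA per cell cannot be told apart.

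Other cell types had few DEGs. The Langerhans and dendritic cell list had none among 7 tested, with 6 log2 fold changes below 0 and 1 above. Its summed level was 717 to 984 CPM in NS and 449 to 954 CPM in AK. All 9 tested cytotoxic and natural killer genes had log2 fold changes above 0 (median 0.71), and 1 was a DEG. Fcgr1, the high-affinity IgG receptor of macrophages and itself interferon-inducible, was 1.13 to 6.95 CPM in NS and 3.07 to 21 CPM in AK and was the 1 of 16 macrophage and monocyte genes that rose (log2 fold change 1.49 ± 0.39, edgeR adjusted p = 0.0356, 8 leave-1-out fits, called with the GC correction). Pi16, a gene of adventitial fibroblasts, was the 1 of 14 fibroblast genes that fell (log2 fold change −1.37 ± 0.40, edgeR adjusted p = 0.0493, 4 leave-1-out fits, GC-corrected adjusted p = 0.145). The sebaceous wax and triglyceride synthases Awat2 and Dgat2l6 fell (log2 fold changes −2.41 and −1.65, edgeR adjusted p = 0.0387 and 0.0465), in 6 and 4 leave-1-out fits, and were not called with the GC correction (adjusted p = 0.0571 and 0.0539). Neutrophil genes summed to 88.4 to 6000 CPM in NS and 639 to 3120 CPM in AK, with no DEG among 8 neutrophil genes by edgeR, also at an unadjusted p below 0.05, and none by DESeq2. Without NS 9 the same test called 2 of them higher in AK.

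Muscle and blood differed in amount between pieces. All 20 skeletal muscle genes had log2 fold changes below 0 (median −1.32), with summed levels of 1040 to 12600 CPM in NS and 39.5 to 7700 CPM in AK. The 1 muscle DEG, Actn2, was 17.4 to 36.6 CPM in NS and 0.468 to 14 CPM in AK without overlap (log2 fold change −1.69 ± 0.45, edgeR adjusted p = 0.0371, 7 leave-1-out fits, GC-corrected adjusted p = 0.0758), while Acta1 did not pass (edgeR adjusted p = 0.382). Haemoglobin and other erythroid genes summed to 805 to 52300 CPM in NS and 10000 to 156000 CPM in AK, with none of 6 a DEG by edgeR (median log2 fold change 1.59), 3 higher by DESeq2, 5 higher at an unadjusted p below 0.05 and 5 higher by edgeR without NS 9. Leaving the marker genes of muscle, fat, blood and lung out before scaling gave 260 higher and 284 lower DEGs among 11654 tested. Of these markers only Actn2 was a DEG, and other RNA of the same tissues stayed in, so this cannot show whether tissue content affected the totals.

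**Figure D5:**
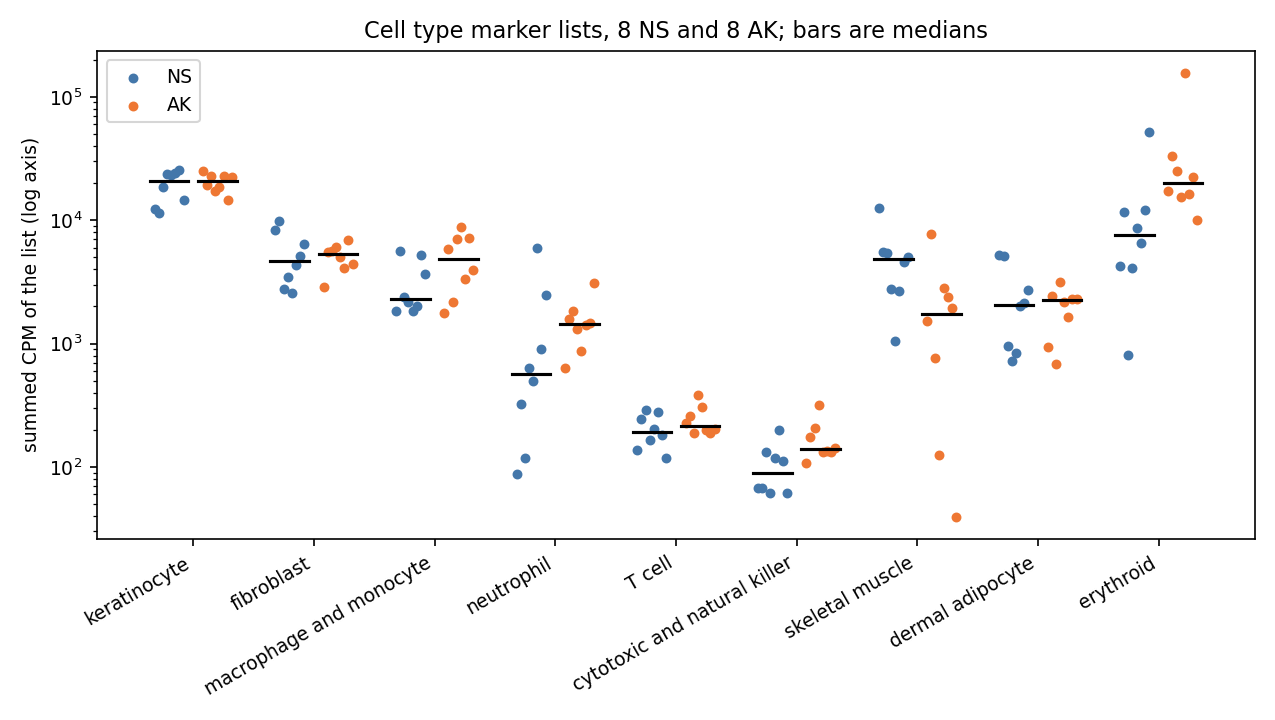
Summed CPM of 9 cell type marker lists on a log axis in each of the 8 NS (blue) and 8 AK (orange) samples, with medians as bars. Keratinocyte sums lie in the same range in both groups, and skeletal muscle and erythroid sums spread over more than 10-fold within each group.

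In the antimicrobial peptide and lipocalin list 3 genes gave some of the most stable decreases, while the list as a whole moved in both directions. Defb6, a β-defensin, was 66.1 to 996 CPM in NS (median 227) and 21.6 to 129 CPM in AK (median 50.5), with 6 AK samples below the NS range and NS 2 far above the other NS samples (log2 fold change −2.40 ± 0.45, edgeR adjusted p = 0.0151). Wfdc21, a WAP-domain protein gene, was 43.8 to 484 CPM in NS (median 155) and 7.24 to 63.2 CPM in AK (median 34.3), with a log2 fold change of −2.55 ± 0.45 (edgeR adjusted p = 0.0151). Its neighbour in family Wfdc18 was low, at 2.74 to 25.4 CPM in NS and 0.00 to 3.78 CPM in AK (log2 fold change −2.50 ± 0.54, edgeR adjusted p = 0.0190). All 3 were called in all 16 leave-1-out fits and with the GC correction, and they were the DEGs among 15 tested in this list (median −0.23). Of the 15, 6 had log2 fold changes above 0 and 9 below. The summed level of the list was 838 to 3230 CPM in NS and 1480 to 4120 CPM in AK.

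Signalling and adhesion genes with stable changes were few. In the TGF-beta list 3 of 21 rose: Skil, a feedback repressor of SMAD signalling, the signal transducer Smad2 and the receptor Tgfbr1. Skil was 83.8 to 184 CPM in NS (median 145) and 250 to 391 CPM in AK (median 288) without overlap (log2 fold change 1.03 ± 0.16, edgeR adjusted p = 0.00615), and it was called in all 16 leave-1-out fits and with the GC correction (adjusted p = 0.0184). Smad2 (log2 fold change 0.62 ± 0.13, edgeR adjusted p = 0.0190) was called in 15 leave-1-out fits but not with the GC correction (adjusted p = 0.0533), and Tgfbr1 (0.69 ± 0.19, edgeR adjusted p = 0.0418) in 4 and not with the GC correction (adjusted p = 0.285). The desmosomal cadherin Dsc2 rose (10.3 to 50.4 CPM in NS, 20.7 to 162 CPM in AK, log2 fold change 1.75 ± 0.39, edgeR adjusted p = 0.0209). It was called in all 16 leave-1-out fits and with the GC correction. Erbb2, an EGF receptor family kinase, fell (log2 fold change −0.67 ± 0.17, edgeR adjusted p = 0.0291, 12 leave-1-out fits) but had a log2 fold change of −0.29 with the GC correction (adjusted p = 0.281).

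Proliferation and translation moved by small amounts. Of 40 cell cycle genes, 34 had log2 fold changes above 0 (median 0.42) and 2 rose, cyclin A2 (Ccna2) and the replication clamp Pcna. Ccna2 was 13.4 to 38.3 CPM in NS and 36.4 to 69.4 CPM in AK (log2 fold change 0.86 ± 0.22, edgeR adjusted p = 0.0326), and it was called in 9 leave-1-out fits and Pcna in 5. The cell cycle count was 0 without AK 12, AK 13, AK 16, AK 17, NS 1, NS 4 or NS 5 and 0 with the GC correction, 8 without NS 8, and the median was 0.19 without the 4 smallest libraries. Of 51 cytosolic ribosomal protein genes 6 fell, among them Rps28 (log2 fold change −1.17 ± 0.27, edgeR adjusted p = 0.0247, 14 leave-1-out fits) and Rps19 (−0.78 ± 0.19, edgeR adjusted p = 0.0282, 11 leave-1-out fits), and 47 had log2 fold changes below 0 (median −0.32). That count was 0 without AK 13 or NS 4, 13 without AK 17 and 4 with the GC correction. Actb, often used as a reference gene, fell from a median of 2920 to 1890 CPM (log2 fold change −0.93 ± 0.23, edgeR adjusted p = 0.0314, 8 leave-1-out fits, called with the GC correction). Of all 63 pathway and cell type lists, 42 held at least 1 DEG, 21 held none and 5 held 5 or more. The lists had 1 to 51 tested members and 4.64% of all tested genes were DEGs, so a longer list can hold 1 by chance.

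Some of the most consistent genes lay outside the groups above. Dcaf6, a substrate receptor of a ubiquitin ligase, was 14 to 32.7 CPM in NS (median 21.6) and 5.94 to 12.1 CPM in AK (median 9.54) without overlap, with a log2 fold change of −1.22 ± 0.22 (edgeR adjusted p = 0.0151). Trim2, a neuronal and epithelial ubiquitin ligase gene, was 30.7 to 169 CPM in NS (median 104) and 21.2 to 47.7 CPM in AK (median 27.1), a log2 fold change of −1.76 ± 0.31 (edgeR adjusted p = 0.0150). Zfp36, which encodes tristetraprolin, a destabiliser of cytokine mRNAs, was 15 to 31.0 CPM in NS and 33.4 to 55.9 CPM in AK without overlap (log2 fold change 0.85 ± 0.18, edgeR adjusted p = 0.0190). These 3 genes were called in all 16 leave-1-out fits and with the GC correction. Col16a1, a minor collagen chain, also fell without overlap in all 16 leave-1-out fits (log2 fold change −1.02 ± 0.20, edgeR adjusted p = 0.0170), but its value with the GC correction was −0.56 (adjusted p = 0.0922). Pmaip1, which encodes the p53-induced death protein Noxa, was 13.6 to 107 CPM in NS and 109 to 156 CPM in AK, with AK 10 just above NS 8 (log2 fold change 1.18 ± 0.29, edgeR adjusted p = 0.0283, 11 leave-1-out fits). The lists that hold Zfp36 and Pmaip1 each also held 1 DEG that fell. The growth factor-induced regulator Egr2 fell in the immediate early and AP-1 list (log2 fold change −1.13 ± 0.30, edgeR adjusted p = 0.0387, 4 leave-1-out fits), and the p53-induced sestrin Sesn1 fell in the p53 target list (−0.96 ± 0.27, edgeR adjusted p = 0.0475, 3 leave-1-out fits). Pmaip1, Egr2 and Sesn1 were not called with the GC correction.

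The 4 cSCC samples, each from an irradiated mouse, are set beside AK here, but 3 of their libraries held much RNA of other tissue or blood. Lung epithelium genes summed to 36100 CPM in cSCC 20, against 1.95 to 51.7 CPM in AK. Heart muscle genes summed to 46700 CPM and skeletal muscle genes to 27500 CPM in cSCC 21, and erythroid genes to 922000 CPM in cSCC 18. The cSCC 18 value was raised by its TMM factor of 0.5086 and is not a share of the library, whose 10 most abundant genes took 49.5% of counts. Keratinocyte markers summed to 6830 CPM in cSCC 20 and 4860 CPM in cSCC 21, below every AK sample (14600 to 25000 CPM). The part of this RNA in the values below was not tested beyond leaving libraries out, a choice made after the data were seen.

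The AK samples are shared by both contrasts, so the values are given side by side, and in cSCC vs. AK 16% of 12032 tested genes were DEGs higher in cSCC (1931) and 8.34% lower (1004). Without cSCC 20 and cSCC 21 these were 843 and 741 of 12567 tested. Values in cSCC are listed in the order cSCC 18, 19, 20 and 21. Lor was 18.8, 1.32, 7.96 and 1.98 CPM in the cSCC samples, all below the lowest AK sample at 49.1 CPM (cSCC vs. AK, log2 fold change −4.65, edgeR adjusted p = 0.00219, and 0.00912 without cSCC 20 and cSCC 21). Skint5 had no count in any cSCC sample, against 0.701 to 45.8 CPM in AK (edgeR adjusted p = 0.0149, and 0.0883 without cSCC 20 and cSCC 21). Ldha was 2790, 6340, 2060 and 2440 CPM in cSCC against 1460 to 2240 CPM in AK (log2 fold change 1.03, edgeR adjusted p = 0.0334), and its edgeR adjusted p was 0.00772 without cSCC 20 and cSCC 21 but 0.180 without cSCC 19. Krt77 was 0.695, 2.64, 1.14 and 2.48 CPM in cSCC and was not a DEG in cSCC vs. AK (log2 fold change −3.76, edgeR adjusted p = 0.0901).

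Among interferon and alarm genes, some were lower in cSCC than in AK and others did not pass the test. Il7r was lower in cSCC (log2 fold change −2.44, edgeR adjusted p = 0.0171, and 0.00445 without cSCC 20 and cSCC 21). Oas3 (−2.22, edgeR adjusted p = 0.0101) and Iigp1 (−1.47, edgeR adjusted p = 0.0371) were also lower, but without cSCC 20 and cSCC 21 neither was called (adjusted p = 0.0660 and 0.261). With 1 cSCC library left out Oas3 was called each time. Iigp1 was not called without cSCC 18, cSCC 20 or cSCC 21 (edgeR adjusted p = 0.0518, 0.0892 and 0.0745). Gbp7 was 86.8, 178, 84.2 and 34.7 CPM in cSCC against 105 to 318 CPM in AK (log2 fold change −0.80, edgeR adjusted p = 0.131, and 0.0245 without cSCC 19), and Rtp4 was 370, 61.5, 105 and 31.9 CPM against 199 to 393 CPM (−0.80, edgeR adjusted p = 0.238). Without cSCC 18, its highest cSCC sample, Rtp4 was a DEG lower in cSCC (−1.95, edgeR adjusted p = 0.00255). Tslp was 1200, 5.27, 100 and 2.32 CPM in cSCC, so its spread ran from below the NS samples to above all AK samples (edgeR adjusted p = 0.225). Hif1a was 975, 640, 372 and 232 CPM (edgeR adjusted p = 0.666), and Ptgs2 was 22.2, 160, 54.6 and 29.6 CPM against 5.31 to 110 CPM in AK (edgeR adjusted p = 0.252). With 4 cSCC samples of this spread, a p that misses the threshold does not show that the lesions were alike.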

How the data were processed

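Total RNA from skin pieces was made into Nextera libraries and read as 150-base pairs. The authors deposited 1 table of raw counts per gene (22090 symbols, 20 samples), with no unmapped columns. The submitters' processing notes name Trimmomatic 0.36, HISAT2 2.0.5 and featureCounts 1.5.2 and the builds hg19 and mm9, whereas the study's methods name GRCm38 and StringTie; which made the table, and whether strand was used, is not given in the sources used here. Genes without enough counts (filterByExpr) were removed, leaving 11677 of the 17761 with a count in the 16 samples, and AK vs. NS was tested with edgeR 4.0.16 (TMM factors, quasi-likelihood test, R 4.3.3), with no covariate. DEGs passed an adjusted p of 0.05 and the study's fold limits (1.5 upward, 0.67 downward). Values tested in cSCC vs. AK used the same rules.

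The samples compared and the 63 gene lists were chosen with earlier results of these data known, so no list was given a p-value. Named genes came from a rule: up to 12 non-overlapping DEGs by fold change and 5 by adjusted p in each direction, up to 6 DEGs per list (if under 2, also the 2 most abundant members), the 5 most abundant genes and the 3 largest CPM differences in each direction. The 86 described are a selection from these 198, made with their values in view. Ero1l, Hk2, Lce1a1 and Pgam1, outside the rule, are named only as members of a count. The results were recomputed with DESeq2 1.42.0, limma 3.58.1 voom, other scalings and filters, and leaving out libraries. GC content came from GENCODE M21 transcripts and motifs from RefSeq promoters. On simulated AK vs. NS counts with 4-fold changes and no GC trend, 93.8% of 193 changed genes among 11806 were recovered with 5 false calls. Most DEGs in the data changed less than 4-fold and AK samples shared mice, whereas simulated samples were independent. The recovered share therefore does not carry over to the smaller changes. With a GC trend between the groups added to the simulated counts, the uncorrected fit made 1043 false calls and the GC-corrected fit 6. The size of that trend was set and not estimated from the samples, so these counts do not give the number of false calls in the data. Floors of 3 counts cover counting error only, and ± values are SE of the edgeR fit or SD over samples.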

Additional observations from a re-analysis of the deposited data

Results flagged for a closer look

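Among 185 groups of 4 or 8 values of the named genes, 37 had a highest or lowest sample separated from the rest by more than Dixon's critical value. That value flags about 1 in 20 groups when values are normally distributed. CPM values were not transformed and many of these genes vary together, so the 37 cannot be set against that rate. Apart from Tslp in NS 8, every flag was a highest value. The flags gathered in a few samples, and values are CPM.

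AK 13 was the highest AK sample for 8 genes, 7 of them interferon-inducible GTPases or chemokines: Tgtp1 (569, next 226), Tgtp2 (572, next 234), Gbp8 (97.0, next 30.4), Iigp1 (1190, next 667), Gbp7 (318, next 198), Gbp9 (78.5, next 47.6) and Cxcl9 (382, next 186), and Ly6a (5600, next 4100), a surface antigen that interferons also induce.

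AK 10, the deepest library, was the highest AK sample for 7 genes that were lower in AK than in NS: Krt77 (176, next 42.7), Krt2 (18.7, next 3.02), Lce1m (285, next 122), Lce1l (179, next 92.1), Skint5 (45.8, next 12.8), Skint9 (225, next 105) and Trim2 (47.7, next 32.7). Its value was above the NS median (151) for Lce1l and below the NS median for the other genes.

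NS 8 was flagged for 5 genes. It was the highest NS sample for Ccl3 (19.8, next 7.87), Mmp10 (39.6, next 10.1), Ptgs2 (8.83, next 2.82) and Pgk1 (335, next 217), all higher in AK, and the lowest for Tslp (5.48, next 13). NS 7 was the highest NS sample for Cxcl10 (56.8, next 21).

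Haemoglobin genes set apart AK 14 (Hba-a1 49800, next 10000, and Hbb-bs 46700, next 10700) and NS 9 (Hba-a1 15100, next 4130, and Hbb-bs 17900, next 3390), and the muscle actin Acta1 set apart AK 11 (2130, next 840). NS 2 was highest in NS for Defb6 (996, next 438), Awat2 (135, next 60.2) and Pi16 (99.1, next 52.3), and NS 4 for Cd7 (27.5, next 12.4). Further single values were AK 12 for Il13ra1 (844, next 611) and Ccna2 (69.4, next 51.9), AK 16 for Mmp10 (254, next 112) and AK 17 for Rps28 (51.9, next 34.3). In cSCC the highest of the 4 values stood apart for Tslp (1200, next 100), Ldha (6340, next 2790) and Vegfa (115, next 26.8).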

How the results depend on the processing

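Totals below are DEGs in AK vs. NS, then higher and lower in AK (542, 264 and 278 as reported). DESeq2 gave 1067, 432 and 635, limma voom with quality weights 1043, 521 and 522, the study's own rule (per-gene test without adjustment) 1841, 790 and 1051, and an unadjusted p with the same fold limits 1798, 708 and 1090. All 20 samples in 1 fit gave 9, 5 and 4, the GC correction 235, 114 and 121, and leaving out the 4 smallest libraries 1, 1 and 0. Library size alone gave 176 higher and 481 lower. Leaving out 1 library gave 164 to 920 in total, 87 to 437 higher and 77 to 483 lower, and totals over 1.5 times away came without AK 12 (333), AK 13 (181), AK 15 (261), AK 16 (231), NS 1 (244), NS 2 (271), NS 4 (164), NS 5 (274) and NS 8 (920). The cause of these shifts was not tested, beyond the smaller number of samples. Other filters, robust dispersion, upper quartile factors, no fold limit and the removal of tissue genes kept all 3 counts within 1.5 times.

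Genes whose groups did not overlap (46 higher, 15 lower) numbered 24 and 34 with library size alone, 32 and 23 with upper quartile factors and 20 and 23 with the GC correction. Leaving out 1 library, which makes overlap less likely, gave 48 to 114 higher and 17 to 65 lower. Of the 77 DEGs named by rule 27 were called in all 16 leave-1-out fits (median 12, fewest 2), and none changed direction in AK vs. NS under any alternative. In cSCC vs. AK, which missed the threshold for both genes, the log2 fold change of Tslp was 1.68, and −1.60 (without cSCC 18) to 2.09 with 1 cSCC library left out, and that of Hif1a was −0.23, and 0.29 without cSCC 20 and cSCC 21. No paired analysis was possible because the AK and NS labels share no replicate numbers and tie no sample to a mouse. Depth limits the low genes: 3 counts were 3.78 CPM in AK 12, 1.69 CPM in NS 6 and 1.80 CPM in AK 16.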

Other observations

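NS samples differed among themselves in Krt6b and Sprr2a1, which were not DEGs in AK vs. NS, and in some of the genes that fell in AK. Krt6b, induced in wounded and stressed epidermis, was 34.9 CPM in NS 1, 64.9 in NS 2, 168 in NS 4, 1180 in NS 5, 965 in NS 6, 2410 in NS 7, 4130 in NS 8 and 88.1 in NS 9, so NS 7 and NS 8 lay at or above the AK values of 2030 to 3860 CPM. Sprr2a1 was 4.75 CPM in NS 1, 8.98 in NS 2, 64.8 in NS 4, 1100 in NS 5, 4040 in NS 6, 7600 in NS 7, 6140 in NS 8 and 205 in NS 9, with NS 6, NS 7 and NS 8 in or above the AK range. NS 7 and NS 8 also had the lowest NS levels of Krt77 (74.0 and 28.0 CPM), Flg2 (164 and 143 CPM) and Skint6 (26.0 and 8.52 CPM). Tslp did not share this pattern, since NS 8 had the lowest level of all 16 samples (5.48 CPM) and NS 7 (15.8 CPM) lay in the middle of NS. The labels do not say which NS pieces came from irradiated mice, so these values were not grouped or tested.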
